A study of Homo sapiens with 6 samples.

Results

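The 10 genes CD36, OLR1, SCARB1, MSR1, VLDLR, LRP1, LRP8, CXCL16, STAB1 and STAB2 encode cell-surface receptors that bind oxidized or native lipoproteins. They were followed in T24 cells, a long-established line from a human bladder carcinoma, by taking every probe set whose platform annotation names one of them. All 10 were measured, each by 1 probe set, out of 17687 named genes on the array. After 12 h without serum, cells received either vehicle or oxidized low-density lipoprotein (ox-LDL) at 20 µg/mL, and total RNA was taken 24 h later. Each group held 3 arrays, 1 per sample, and all samples came from the same line and had been grown in 10% serum before. Nothing in the labels says whether replicates were grown as separate cultures, so the p-values reflect only how these samples vary, possibly for technical reasons. They do not say how the ox-LDL was oxidized, and native LDL was not a group here.

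Scavenger receptors are a loose family of unrelated proteins that share an affinity for modified ligands. Unlike the receptors of native LDL, the classical macrophage scavenger receptors are not shut down by the sterol they import, which is how macrophages become foam cells. CD36 and SR-A, the product of MSR1, are the main carriers of ox-LDL into macrophages, and LOX-1, the product of OLR1, is best known as the ox-LDL receptor of endothelium. The LDL receptor family members VLDLR, LRP1 and LRP8 take up lipoproteins rich in apolipoprotein E, and VLDLR and LRP8 also bind reelin.

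Values are log2 expression levels normalized by RMA (robust multi-array average), so a difference of 1 is a 2-fold change. The medians of the 6 arrays ran from 7.11 to 7.18. Vehicle replicate 3 differed most, correlating at 0.979 to 0.988 with the others, which correlated at 0.992 to 0.997 among themselves. On it, probe sets between the background limit defined below and the overall median were brighter than on the other 2 vehicle arrays by a median of 0.17, and those above the median dimmer by 0.05. A free-text label that speaks of siRNA against G9a contradicts all other labels, and EHMT2, which encodes G9a, had a log2 difference of 0.37 (adjusted p = 0.125).

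The main scavenger receptors of macrophages and endothelium for ox-LDL were at or close to background in vehicle-treated cells. The background limit was the 95th percentile of 612 negative control probe sets, a log2 value of 5.21. CD36 and OLR1 had group means below it in both groups, STAB2 crossed it, and 7 genes (SCARB1, MSR1, VLDLR, LRP1, LRP8, CXCL16 and STAB1) lay above it on all 6 arrays. In vehicle 8 of the 10 means were above the limit, against 77.9% of all 21448 probe sets tested. With the 99th percentile of the negative controls as the limit, 6.10, only SCARB1, VLDLR, LRP1, LRP8 and CXCL16 remained above it, 5 genes in both groups. A value above the limit does not show that a gene is expressed. Of 10 macrophage markers 6 also lay above it, while PTPRC, AIF1, LYZ and FCGR1A did not. In vehicle TYROBP (8.01), CD14 (7.54), CSF1R (7.31) and CD163 (6.15) lay above the 99th percentile too. Whether T24 cells express these markers was not tested, and a mean above either limit was not taken to show expression. Levels of different genes come from different probes and are not compared with each other.

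**Figure D1:**
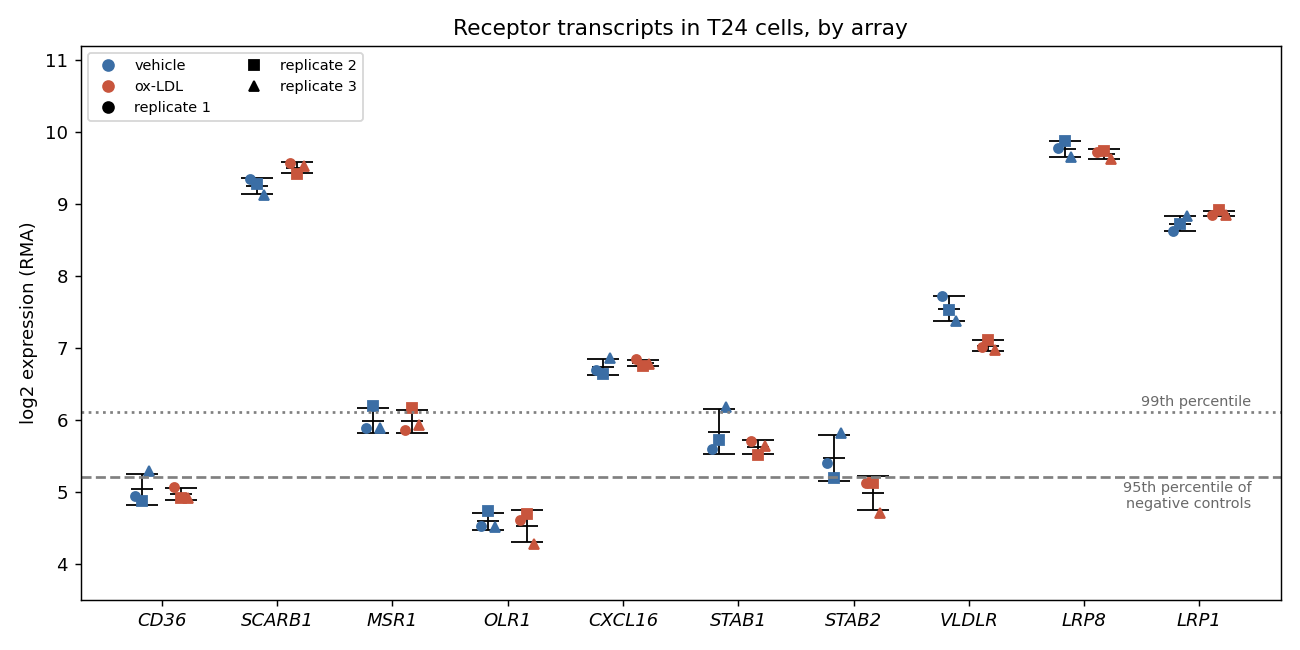
Log2 expression of the 10 receptor genes (vertical axis) on each array, with vehicle in blue, ox-LDL in red and a symbol for each replicate number; black bars are means ± SD (n = 3). Horizontal lines mark the 95th (5.21) and 99th (6.10) percentiles of the negative controls. CD36 sits near the lower line and OLR1 below it in both groups, and the 3 ox-LDL arrays of VLDLR all lie below its 3 vehicle arrays.

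With ox-LDL, VLDLR was the 1 member that passed the test, and it fell. Across the 10 genes 0 rose, 1 fell and 9 did not pass (limma, Benjamini-Hochberg adjusted p under 0.05 over all probe sets). Across the array 6.77% of probe sets passed, 3.48% higher and 3.29% lower, so 1 of 10 is near the share of all probe sets. The median log2 difference of the members was -0.07, against -0.03 for all probe sets, with 7 means lower and 3 higher. At an unadjusted p under 0.05 there were 3 members (VLDLR, SCARB1 and STAB2), against 26.1% of all probe sets. The 2 groups did not overlap for 4 members, SCARB1 and LRP1 higher and VLDLR and STAB2 lower, against 36.8% of all probe sets. For 7 of the 9 genes that did not pass, the 95% confidence interval of the change lay within 1.5-fold in either direction. RMA pulls dim values together, so for CD36 and OLR1 that interval bounds the change of the signal rather than of the transcript. The same may hold for MSR1, whose means (5.99 in vehicle, 5.98 with ox-LDL) lay under the 99th percentile of the negative controls.

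**Figure D2:**
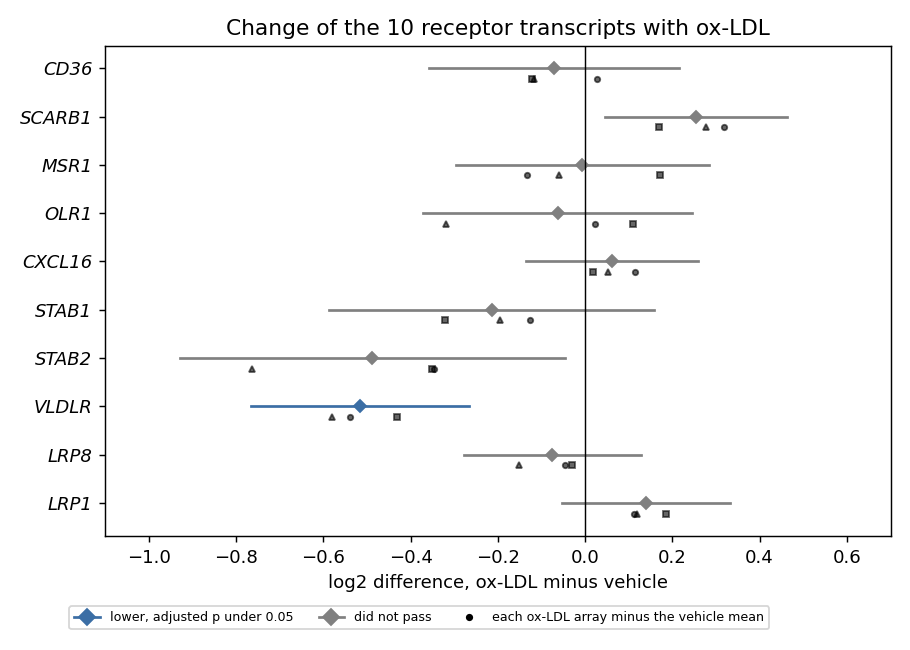
Log2 difference between ox-LDL and vehicle (horizontal axis) for each receptor gene, with limma's 95% confidence interval; small symbols are each ox-LDL array minus the vehicle mean. VLDLR, in blue, passed the test at a log2 difference of -0.52; the 9 genes in grey did not.

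Of the class B receptors, CD36 is a fatty acid translocase that binds oxidized phospholipids, and SCARB1 encodes SR-BI, the receptor through which cells exchange cholesteryl esters and cholesterol with high-density lipoprotein. The log2 values of CD36 were 4.95, 4.87 and 5.28 in vehicle and 5.06, 4.91 and 4.92 with ox-LDL. The groups overlapped, and the highest value, the 1 above the background limit, was on the third vehicle array. The log2 difference was -0.07 (SE 0.12, 95% interval -0.36 to 0.22, adjusted p = 0.729), and it was 0.05 without that array; its sign also turned with cyclic loess, repeated quantile normalization or array weights.

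SCARB1 lay well above the background limit, with log2 values of 9.34, 9.28 and 9.13 in vehicle and 9.57, 9.42 and 9.53 with ox-LDL. The ox-LDL arrays all lay above the vehicle arrays. The means were 9.25 ± 0.11 and 9.50 ± 0.08 (SD, n = 3 each), a 1.19-fold difference (log2 difference 0.25, SE 0.09, 95% interval 0.05 to 0.46) that did not pass (adjusted p = 0.131). PDZK1, the adaptor that holds SR-BI at the membrane of liver cells, lay close to the background limit, above it on 2 vehicle arrays and 1 ox-LDL array, and its log2 difference of -0.24 did not pass.

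Among the other scavenger receptors, MSR1 (class A) did not pass (adjusted p = 0.976). Its log2 values were 5.88, 6.19 and 5.89 in vehicle and 5.86, 6.16 and 5.93 with ox-LDL, overlapping throughout. The log2 difference was -0.01 (SE 0.12, 95% interval -0.30 to 0.28), with a sign that turned under equal array medians, cyclic loess and repeated quantile normalization. OLR1, whose transcript ox-LDL is known to induce in endothelial cells, had log2 values of 4.53, 4.73 and 4.50 in vehicle and 4.61, 4.70 and 4.27 with ox-LDL. All 6 values lay below the background limit and the groups overlapped. The log2 difference was -0.06 (SE 0.13, 95% interval -0.37 to 0.25, adjusted p = 0.780), and its sign turned with cyclic loess or repeated quantile normalization.

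CXCL16 encodes a membrane-bound chemokine, also called SR-PSOX, that binds ox-LDL on the cell surface and is released as a soluble attractant of CXCR6-bearing lymphocytes. It had log2 values of 6.69, 6.64 and 6.85 in vehicle and 6.84, 6.75 and 6.78 with ox-LDL. The groups overlapped, and the log2 difference was 0.06 (SE 0.08, 95% interval -0.14 to 0.26, adjusted p = 0.652). Its chemokine receptor CXCR6 lay below the background limit in both groups.

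STAB1 and STAB2 encode stabilin-1 and stabilin-2, class H receptors of sinusoidal endothelium that clear oxidized lipoproteins and, for stabilin-2, hyaluronan. STAB1 had log2 values of 5.60, 5.72 and 6.19 in vehicle and 5.71, 5.51 and 5.64 with ox-LDL, so that the groups overlapped. Its log2 difference was -0.21 (SE 0.16, adjusted p = 0.409), and -0.04 without the third vehicle array. STAB2 had log2 values of 5.40, 5.20 and 5.82 in vehicle and 5.12, 5.12 and 4.71 with ox-LDL. All 3 ox-LDL arrays lay below the vehicle arrays and below the background limit, as did 1 vehicle array. The log2 difference of -0.49 (SE 0.19, 95% interval -0.93 to -0.05) did not pass (adjusted p = 0.160), and it was -0.31 without the third vehicle array. For CD36, STAB1 and STAB2 that array was the highest of the 3 vehicle arrays, by 0.37, 0.53 and 0.52 over the mean of the other 2.

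The 3 members of the LDL receptor family lay above background on every array; VLDLR fell, while LRP8 and LRP1 did not pass. VLDLR had log2 values of 7.72, 7.53 and 7.38 in vehicle and 7.01, 7.11 and 6.97 with ox-LDL. Every ox-LDL array lay below every vehicle array. The mean went from 7.54 ± 0.17 to 7.03 ± 0.08 (SD, n = 3 each), 1.43-fold lower (log2 difference -0.52, SE 0.11, 95% interval -0.77 to -0.27, adjusted p = 0.0363). The size of this difference exceeded that of 94.3% of all probe sets tested. Fewer cells with the transcript and less of it per cell cannot be told apart in RNA of whole cultures, and RMA removes any change of total RNA. The direction held under every alternative run, with log2 differences from -0.60 to -0.43, but the call did not: it was lost with equal array medians (adjusted p = 0.0527), cyclic loess (0.0568), the replicate number as a block (0.0763), an unmoderated t statistic (0.0945) and without any array other than the third vehicle array (0.0699 without vehicle replicate 1, 0.0913 without vehicle replicate 2, and 0.145, 0.112 and 0.146 when ox-LDL replicates 1, 2 and 3 were dropped). Without the third vehicle array it passed (-0.60, adjusted p = 0.0123), where 12.4% of all probe sets did. It did not meet the study's own selection, an unadjusted p up to 0.001 together with a change of at least 1.5-fold, which took 2.31% of probe sets and none of the 10 receptors.

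**Figure D3:**
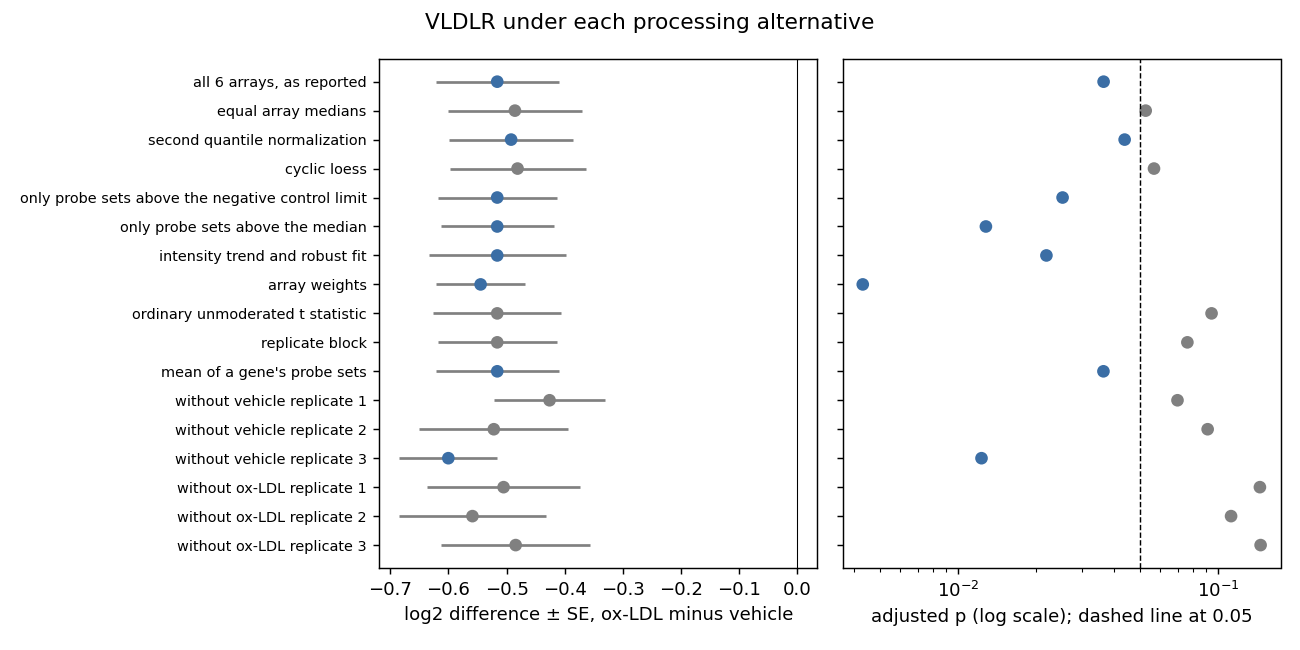
VLDLR under each processing alternative: left, log2 difference between ox-LDL and vehicle ± SE; right, adjusted p on a log scale with a dashed line at 0.05. Blue points passed. The difference stays between -0.60 and -0.43, while the adjusted p runs from 0.00431 to 0.146.

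LRP8, also called apolipoprotein E receptor 2, is the closest relative of VLDLR and shares its role in reelin signalling. Its log2 values were 9.79, 9.88 and 9.66 in vehicle and 9.73, 9.74 and 9.62 with ox-LDL, with overlapping groups. The log2 difference was -0.07 (SE 0.09, 95% interval -0.28 to 0.13, adjusted p = 0.591). LRP1, a large endocytic receptor of many ligands including apolipoprotein E remnants and protease-inhibitor complexes, had log2 values of 8.63, 8.73 and 8.84 in vehicle and 8.84, 8.92 and 8.85 with ox-LDL. The groups did not overlap, though only by the third decimal, and the log2 difference of 0.14 (SE 0.08, 95% interval -0.05 to 0.33) did not pass (adjusted p = 0.314).

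The difference between the relatives was also read within each array, a choice made after the values were seen. LRP8 minus VLDLR was 2.06, 2.34 and 2.28 in vehicle and 2.72, 2.63 and 2.66 with ox-LDL, a shift of 0.44. LRP1 minus VLDLR was 0.90, 1.20 and 1.46 in vehicle and 1.84, 1.80 and 1.89 with ox-LDL, a shift of 0.65. In both pairs the 2 groups did not overlap. For LRP1 this was fixed by the values above, since with ox-LDL LRP1 was higher and VLDLR lower on every array. VLDLR was taken because it had passed, so both shifts carry its own difference over. In a two-sided exact permutation test 3 arrays against 3 cannot go below p = 0.1, which was the p of each of the 2 pairs, raw and adjusted, so the test could not show that VLDLR changed differently from its relatives.

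The promoters of these 3 receptors are shown because the genes are relatives of which 1 passed the test. The sequences are RefSeq windows of 300 bases on GRCh38.p14, from 250 bases before to 50 bases after the annotated start, read 5′ to 3′ along the gene. Capitals mark the GC box, GGGCGG on either strand, where overlapping matches run together. VLDLR lies at chr9:2621537-2621836 on the plus strand, LRP8 at chr1:53328021-53328320 on the minus strand and LRP1 at chr12:57128233-57128532 on the plus strand.
VLDLR: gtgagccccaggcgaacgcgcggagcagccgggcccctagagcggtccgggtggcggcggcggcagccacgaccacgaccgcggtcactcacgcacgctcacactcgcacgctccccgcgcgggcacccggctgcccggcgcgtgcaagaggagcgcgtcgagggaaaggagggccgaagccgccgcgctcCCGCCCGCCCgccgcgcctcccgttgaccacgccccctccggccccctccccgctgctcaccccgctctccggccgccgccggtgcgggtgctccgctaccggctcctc
LRP8: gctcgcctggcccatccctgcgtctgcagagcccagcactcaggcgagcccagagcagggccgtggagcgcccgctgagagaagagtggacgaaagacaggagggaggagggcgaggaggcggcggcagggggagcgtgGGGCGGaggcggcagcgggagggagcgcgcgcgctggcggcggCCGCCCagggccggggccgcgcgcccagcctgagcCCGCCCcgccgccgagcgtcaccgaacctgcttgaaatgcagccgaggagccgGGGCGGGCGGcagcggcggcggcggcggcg
LRP1: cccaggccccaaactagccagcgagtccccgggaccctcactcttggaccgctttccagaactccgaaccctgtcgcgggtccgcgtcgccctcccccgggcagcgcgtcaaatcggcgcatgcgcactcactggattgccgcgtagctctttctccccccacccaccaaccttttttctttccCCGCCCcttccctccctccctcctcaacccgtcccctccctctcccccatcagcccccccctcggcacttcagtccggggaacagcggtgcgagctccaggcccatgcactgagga

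All 3 windows are rich in G and C bases (79.0% in VLDLR, 78.3% in LRP8 and 67.0% in LRP1). VLDLR holds 2 GC boxes, LRP8 5 and LRP1 1; 45.0% of 35116 RefSeq promoter windows hold at least 1. Also searched on both strands were the TATA box (TATAAA, in 11.5% of windows), the hypoxia response core (ACGTG, 21.4%) and the ATF4 and CEBP element (TGATGNAA, 3.62%), and none of these letters occurs in the 3 windows. Windows were used for 6 of the 10 members. The chromosome of MSR1 was left out of the windows shown, and the reference used held none for OLR1, SCARB1 and CXCL16. CD36 has 6 of them, for alternative starts, with 0 GC boxes, and their G and C content ran from 35.0% to 43.7%. The letters TATAAA occur in 2 of them, with the first base at -211 (minus strand) and -216 (plus strand) from the annotated start. These matches describe letters in a window; no binding was measured.

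The genes whose course over the 6 arrays was most like that of VLDLR, by the root mean square difference of mean-centred log2 values among 17686 other genes, were COQ10B (0.051), CCNL1 (0.054) and ZFAND1 (0.054), and all 3 fell (log2 differences -0.47, -0.50 and -0.44). For SCARB1 they were GOLIM4 (0.019), CCNA2 (0.024) and RPE (0.027), with log2 differences of 0.26, 0.24 and 0.25 that did not pass. That these genes differ by similar amounts to VLDLR and SCARB1 follows from how they were chosen.

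Some genes that work with these receptors also passed, to be read against 6.77% of all probe sets and their median of -0.03. The share that passed rose with the level, from 1.15% of probe sets at or below the background limit and 3.89% from there to the overall median to 10.9% above the median. Of 12 other measured members, chaperones and relatives of the LDL receptor family, 1 rose and 11 did not pass (median log2 difference 0.02). The riser was SORL1, a sorting receptor that carries cargo between the Golgi apparatus and endosomes. It had log2 values of 5.82, 6.20 and 5.82 in vehicle and 6.80, 6.95 and 6.78 with ox-LDL, well separated, and rose 1.86-fold (log2 difference 0.89, SE 0.12; adjusted p = 0.0101). That call was lost with an unmoderated t statistic (adjusted p = 0.0540) and without any 1 ox-LDL array (0.0549, 0.0616 and 0.0539). LRPAP1, the chaperone that keeps ligands off the family in the endoplasmic reticulum, differed by 0.24 on the log2 scale (adjusted p = 0.0894) and the Wnt co-receptor LRP5 by 0.23 (adjusted p = 0.113). They passed in 4 and 2 of 17 alternatives, and both did when the test was kept to probe sets above the median (adjusted p = 0.0233 and 0.0362).

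Of 17 other scavenger and pattern receptors, 1 rose and 16 did not pass (median -0.10). SCARA3, a class A relative of MSR1 described as protecting cells from oxidative stress, had log2 values of 6.45, 6.56 and 6.12 in vehicle and 7.42, 7.49 and 7.55 with ox-LDL. All ox-LDL arrays lay above all vehicle arrays, and it rose 2.15-fold (log2 difference 1.10, SE 0.12, adjusted p = 0.00477), a call that held under every alternative in which it was tested. TLR2, a toll-like receptor that can act with CD36, had a log2 difference of -0.33 (adjusted p = 0.154). It passed without the third vehicle array (-0.47, adjusted p = 0.0104) and with array weights (-0.45, adjusted p = 0.00644). SCARB2, a lysosomal relative of CD36, had a log2 difference of 0.21 (adjusted p = 0.192).

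Of 23 genes of endocytic coats and adaptors, 3 rose and 20 did not pass (median 0.03). Most of these genes lie above the overall median, where 10.9% of probe sets passed, and the 3 were the list's caveolar genes, which build the small membrane pits in which CD36 and SR-BI are found. CAVIN1, which forms the caveolar coat, went from 9.57 ± 0.02 to 10.19 ± 0.03 (SD, n = 3 each) and so rose 1.54-fold (log2 difference 0.62, SE 0.07, adjusted p = 0.00405). CAV1, the main caveolar membrane protein, went from 10.77 ± 0.01 to 11.32 ± 0.05 (SD, n = 3 each), a log2 difference of 0.55 (adjusted p = 0.00712). Its partner CAV2 had a log2 difference of 0.43 (adjusted p = 0.0326). CAVIN1 passed under every alternative, CAV1 and CAV2 fell short of the study's 1.5-fold, CAV1 lost its call without ox-LDL replicate 1 or 2 (adjusted p = 0.0545 and 0.0550), and CAV2 without any 1 ox-LDL array, without vehicle replicate 1, with an unmoderated t statistic and with the replicate block (adjusted p = 0.0633 to 0.145). The clathrin chain genes CLTA, CLTB and CLTC had log2 differences of -0.09, 0.03 and 0.04. The log2 difference of the clathrin adaptor subunit AP2M1 was 0.30 (adjusted p = 0.0585) and that of the adaptor NUMB -0.39 (adjusted p = 0.0595).

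Among 8 measured ligands of these receptors, 1 rose, 1 fell and 6 did not pass (median -0.19). THBS1 encodes thrombospondin-1, a matrix protein bound by CD36 and LRP1. It had log2 values of 10.24, 10.24 and 10.46 in vehicle and 11.53, 11.60 and 11.55 with ox-LDL, and so rose 2.37-fold (log2 difference 1.25, SE 0.09, adjusted p = 0.00117). PLAU encodes urokinase, which LRP1 clears in complex with its inhibitor, and it fell 1.53-fold (log2 difference -0.61, SE 0.07, adjusted p = 0.00624). Both calls held under every alternative. LPL, lipoprotein lipase, had a log2 difference of -0.36 (adjusted p = 0.211).

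Of 14 proteases, regulators and signalling partners, 0 passed in limma (median log2 difference 0.05). The unadjusted p of 3 of them was under 0.05, and an unmoderated t statistic called 1. ADAM10 and ADAM17 are the proteases that release CXCL16 from the membrane. ADAM17 had log2 values of 9.71, 9.62 and 9.17 in vehicle and 8.93, 8.90 and 8.95 with ox-LDL, with the ox-LDL arrays all lower. Its log2 difference of -0.57 (SE 0.14, adjusted p = 0.0632) passed in 7 of 17 alternatives. Among them were the fit without the third vehicle array (-0.74, adjusted p = 0.00311), cyclic loess (0.0288) and repeated quantile normalization (0.0294). ADAM10 had a log2 difference of 0.23 (adjusted p = 0.0875), which passed in 4 of 17 alternatives, among them an unmoderated t statistic (0.00754). The protease BACE2 had one of 0.40 (adjusted p = 0.113), which passed in 1 of 16. PPARG, a nuclear receptor that turns on CD36 in macrophages, had a mean log2 value of 8.70 ± 0.21 (SD, n = 3) in vehicle and a log2 difference of 0.18 (adjusted p = 0.347).

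**Figure D4:**
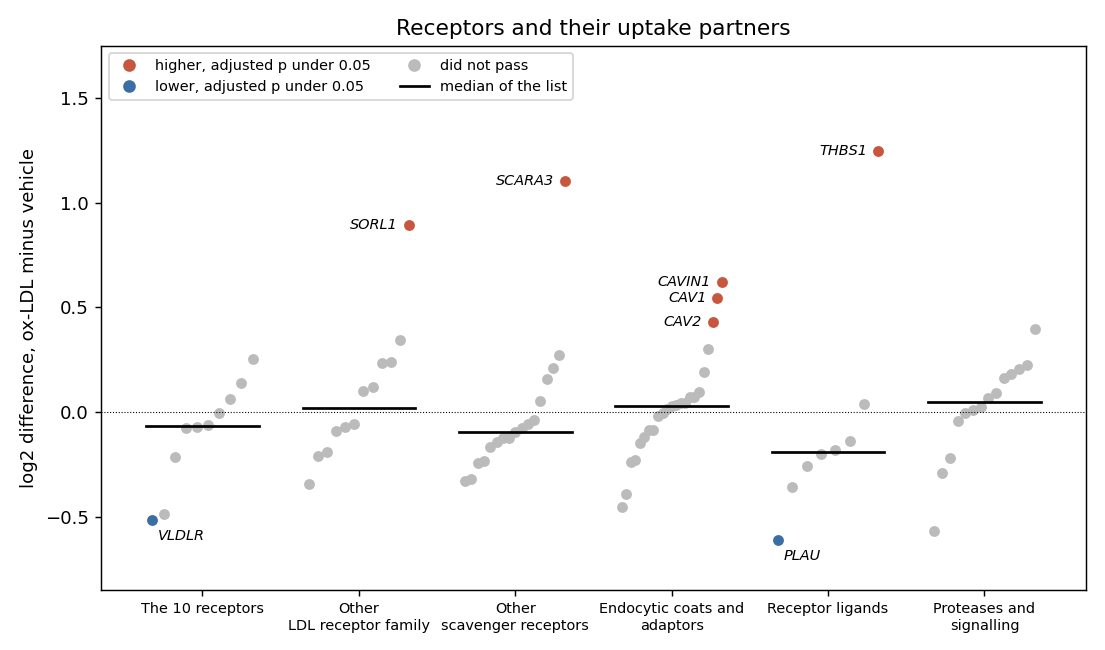
Log2 difference between ox-LDL and vehicle (vertical axis) for each measured gene of 6 lists, in order of size within a list; red and blue points passed higher and lower, grey did not pass, and the black line is the list's median. The passing genes are VLDLR, SORL1, SCARA3, CAVIN1, CAV1, CAV2, THBS1 and PLAU, and the medians lie between -0.19 and 0.05.

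The cells were checked against markers of the line and of the cell types in which these receptors are best known. KRT7, KRT8, KRT18, VIM and FN1 were far above background. In vehicle 9 of 12 epithelial and urothelial markers lay above the limit, and the epithelial cadherin CDH1 and the uroplakins UPK1B and UPK3A did not. Of the 9, EPCAM (5.48) and UPK1A (5.98) lay under the 99th percentile of the negative controls. Of 8 mesenchymal markers 7 lay above the limit, with DCN (5.60) and PDGFRB (5.83) under the 99th percentile, and LUM did not. Of the macrophage and the endothelial markers, 6 of 10 each lay above the limit; PTPRC, AIF1, LYZ and FCGR1A, and KDR, TEK, EMCN and LYVE1, did not in either group. The mean log2 value of the macrophage list ran from 5.61 to 5.87 in vehicle and from 5.48 to 5.63 with ox-LDL, and that of the endothelial list from 5.67 to 5.99 and from 5.61 to 5.66. On the third vehicle array 7 of 10 markers in each list had their highest vehicle value, as had 5 of the 10 receptors (CD36, STAB1, STAB2, CXCL16 and LRP1). The same held for 53.7% of all probe sets at or below the limit, 61.3% of those between the limit and the overall median and 34.7% of those above it. The part of that array in the differences of these receptors was not tested.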

How the data were processed

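The authors deposited log2 expression values of 6 arrays made with RMA, per the submitters' processing notes. Which RMA version, options, build and annotation they used is not given in the sources used here. That the scale is log2 follows from the range of the values. Of 24350 probe sets, 2902 controls were left out of the tests, leaving 21448, of which 17709 had 1 gene symbol, 0 several and 3739 none. A gene with several probe sets was represented by the brightest. Groups followed the sample titles. All 6 arrays entered a limma model of ox-LDL minus vehicle (lmFit, eBayes; limma 3.58.1, R 4.3.3; figures with matplotlib 3.10.9), with two-sided p-values adjusted by Benjamini-Hochberg over all 21448. The procedure was tested on simulated data with independent noise in every value. No array was shifted as a whole there, so that test does not cover a departure such as that of vehicle replicate 3. The members, the lists and the motifs were chosen with earlier results of these data known. Named genes are all members and, from each list, those that passed and the 3 with the smallest p; others, among them PDZK1, CXCR6, PPARG, AP2M1, NUMB and the clathrin chains, were chosen after their values were seen. For arrays no depth applies, and their number limits the precision. Promoters came from RefSeq.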

Additional observations from a re-analysis of the deposited data

How the results depend on the processing

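SCARB1, LRP1, LRP8, CXCL16, STAB1 and STAB2 kept their direction and did not pass under any alternative in which they were tested. VLDLR kept its direction but lost its call in 10 of 17 alternatives: with equal array medians (-0.49), cyclic loess (-0.48), an unmoderated t statistic, the replicate block and the study's selection (-0.52 each), and without 5 of the 6 arrays in turn, over which it ran from -0.60 to -0.43; members lower then numbered 0 (0 to 1 with 1 array left out). The replicate block in limma gave adjusted p = 0.0763 for VLDLR. Same-numbered arrays correlated in their deviations at -0.01, 0.03 and 0.02, so the numbers were not taken as a pairing. The mean correlations with arrays of other numbers were 0.003, -0.015 and -0.0097. Arrays numbered 2 and 3 thus correlated better with their own number, and those numbered 1 did not. The block moved the count over all probe sets from 1451 to 550.

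Differences near 0 turned sign: MSR1 with equal array medians (0.023), a second quantile normalization (0.076) and cyclic loess (0.11), CD36 with the last 2 (0.015 and 0.026) and array weights (0.053), and OLR1 with the last 2 (0.0098 and 0.022). With 1 array left out CD36 ran from -0.15 to 0.054, OLR1 from -0.15 to 0.066 and MSR1 from -0.097 to 0.094. Members above background in vehicle numbered 5 with the 99th percentile and 4 with the median of named probe sets as the limit, against 8.

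Among the lists, passing members of the LDL receptor family numbered 2 higher above the median (LRPAP1 and LRP5, as SORL1 was not tested there), 2 higher and 1 lower with an intensity trend and robust fit, 3 higher and 1 lower with array weights, and 0 to 1 higher with 1 array left out. Other scavenger receptors numbered 0 higher above the median, where SCARA3 was not tested, 1 lower with array weights and 0 to 1 lower with 1 array left out. Endocytic genes numbered 1 lower after a second quantile normalization, cyclic loess, either filter on dim probe sets, or the intensity trend, and 2 lower with array weights. Those higher numbered 4, against 3, under either filter, the intensity trend and array weights. With 1 array left out 0 to 2 were lower and 1 to 4 higher, and under the study's selection 1 was higher. Ligands numbered 2 lower with array weights and 1 to 2 lower with 1 array left out. Proteases and signalling partners numbered 1 lower after a second quantile normalization, cyclic loess or the limit filter, 1 higher and 1 lower above the median and with the intensity trend, 2 higher and 2 lower with array weights, 1 higher with an unmoderated t statistic, and 0 to 2 lower with 1 array left out. The cause of these changes was not tested. By design, filters test fewer probe sets and left-out arrays leave fewer samples, and the part of either in these changes was not tested. In the dimmest genes signal over background limits what can be seen: CD36 and OLR1 lay below it.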
